A study of Homo sapiens with 6 samples.

Results

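The heat shock genes described here are 10 genes that encode chaperones and co-chaperones of the cytosol and the mitochondrial matrix. They are HSPA1A, HSPA1B, HSPA8 and HSPH1 of the HSP70 system, HSP90AA1 and HSP90AB1 of the HSP90 family, the co-chaperones DNAJB1 and BAG3, and the mitochondrial chaperonin pair HSPD1 and HSPE1. They were taken by gene symbol from the 22984 sense-strand rows of each library, and each had 1 row in every library. Of the 10 genes, 8 were covered well enough to be tested.

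Nascent RNA was measured by Bru-seq, in which RNA made during a short pulse of bromouridine is captured with an antibody and sequenced, so that exons and introns of newly made transcripts are read. All 6 libraries came from HCT116, an established human colorectal carcinoma line, each labelled for 30 min with no chase. Cultures received DMSO (0.01%, 4 h, 2 samples), siRNA against GSTO1 (10 nM, 24 h) or a compound. The compounds were the GSTO1 inhibitor C1-27 (1 µM, 4 h or 24 h) and C1-14, which the study calls its inactive analogue (10 µM, 4 h). The 2 DMSO samples are called cultures 1 and 2 here, though the labels do not say whether they were grown apart. Each treatment had 1 culture, and both 24 h treatments were set against DMSO cultures of 4 h, because no 24 h DMSO culture and no culture with a control siRNA was analysed here. DMSO culture 1 was the shallowest library, at 18112861 sense counts, and C1-27 at 24 h the deepest, at 36841146. The targeted gene GSTO1 had a nascent RPKM of 3.51 and 3.72 in the DMSO cultures and 2.70 with siGSTO1 (0.747-fold, adjusted p = 0.314 with edgeR's quasi-likelihood test). An siRNA acts on mature mRNA, so this readout checks the label only weakly. Of 8 markers of intestinal epithelium, 4 were above 0.5 RPKM in every library: EPCAM, KRT8, KRT18 and KRT19. CDH1 ranged from 0.321 to 0.617 RPKM and CDX2 from 0.232 to 0.383. CDX1 was at 0 in all 6 and VIL1 reached no more than 0.0026. The 8 markers of other cell types summed to 0.538 RPKM or less.

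Heat shock proteins bind unfolded or partly folded proteins and hold, refold or pass them on. HSP70 proteins work in an ATP cycle that J-domain proteins such as DNAJB1 stimulate and that nucleotide exchange factors such as HSPH1 and BAG3 reset, and HSP90 acts later, on near-native clients such as kinases and steroid receptors. When unfolded protein accumulates, heat shock factor 1 (HSF1) forms trimers that bind heat shock elements, alternating copies of the letters GAA and TTC, and the inducible genes are transcribed within minutes. Cancer cells commonly transcribe several of these genes without any heat shock.

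The upstream sequences are shown first because heat shock elements are the classical control sequence of such genes. RefSeq lists 16 start sites for the 10 genes on GRCh38.p14, and in each window of 250 bases before a start, both strands were searched for the 2-unit forms GAANNTTC and TTCNNGAA and for the 3-unit form, in which GAANNTTC goes on with NNGAA. The 3-unit form includes its reverse complement, and each match of it holds both 2-unit forms. GAANNTTC was found in 7 of the 16 windows and in 5.78% of all 35116 windows of that length, TTCNNGAA in 4 and in 6.62%, and the 3-unit form in 4 and in 0.441%. The 4 windows with the 3-unit form belong to HSPA8, HSP90AA1 (start 2), HSP90AB1 (start 3) and HSPD1 (start 2). The windows of the other starts of HSP90AA1, HSP90AB1 and HSPD1 held no heat shock form. HSPA1A, HSPA1B and DNAJB1 (start 2 alone) held only GAANNTTC, and the windows of HSPH1, BAG3 and HSPE1 held none of these forms. The matches of HSPD1 (start 2) lie between that start and the start of HSPE1, beyond the 250 bases searched before HSPE1. TATAAA occurred before HSPA1A and HSPA1B and in 10.7% of all windows, and CCAAT in 7 of the 16 and in 32% of all. A match is a run of letters and not a measured binding site.

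The 150 bases before a start are given below, 5′ to 3′ on the strand of the gene, for 5 genes: HSP90AA1, on which the results turn, the abundant HSPA8, the co-chaperone DNAJB1, and the near-identical pair HSPA1A and HSPA1B. Capitals mark matches of GAANNTTC or TTCNNGAA, with overlapping matches run together.
HSP90AA1, downstream start (chr14:102087045-102087194, minus strand): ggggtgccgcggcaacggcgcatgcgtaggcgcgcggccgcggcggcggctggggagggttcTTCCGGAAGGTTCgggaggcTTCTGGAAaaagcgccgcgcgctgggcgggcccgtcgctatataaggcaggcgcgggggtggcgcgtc
HSPA8 (chr11:123062137-123062286, minus strand): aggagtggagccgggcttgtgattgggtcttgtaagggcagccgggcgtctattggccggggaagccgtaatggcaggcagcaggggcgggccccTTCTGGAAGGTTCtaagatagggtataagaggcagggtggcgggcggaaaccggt
DNAJB1, second of 3 starts (chr19:14518398-14518547, minus strand): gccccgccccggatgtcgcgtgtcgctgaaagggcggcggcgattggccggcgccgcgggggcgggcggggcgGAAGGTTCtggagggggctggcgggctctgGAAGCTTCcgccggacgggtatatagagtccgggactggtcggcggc
HSPA1A (chr6:31815393-31815542, plus strand): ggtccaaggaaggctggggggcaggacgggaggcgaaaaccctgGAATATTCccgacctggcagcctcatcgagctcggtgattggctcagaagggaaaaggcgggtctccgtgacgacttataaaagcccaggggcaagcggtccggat
HSPA1B (chr6:31827588-31827737, plus strand): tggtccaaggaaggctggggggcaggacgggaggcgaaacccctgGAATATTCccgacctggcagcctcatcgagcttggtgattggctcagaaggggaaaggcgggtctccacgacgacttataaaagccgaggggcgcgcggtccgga

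In HSP90AA1 the nearest match began 68 bases before the start, in HSPA8 50 and in DNAJB1 47. The 250 bases before HSPA1A and HSPA1B were 93.6% identical, with 235 identical positions of 251 aligned, and both carry the same capitals, 106 and 105 bases before the start. The upstream start of HSP90AA1, 52.7 kb away, had none of the heat shock forms in its window.

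**Figure D1:**
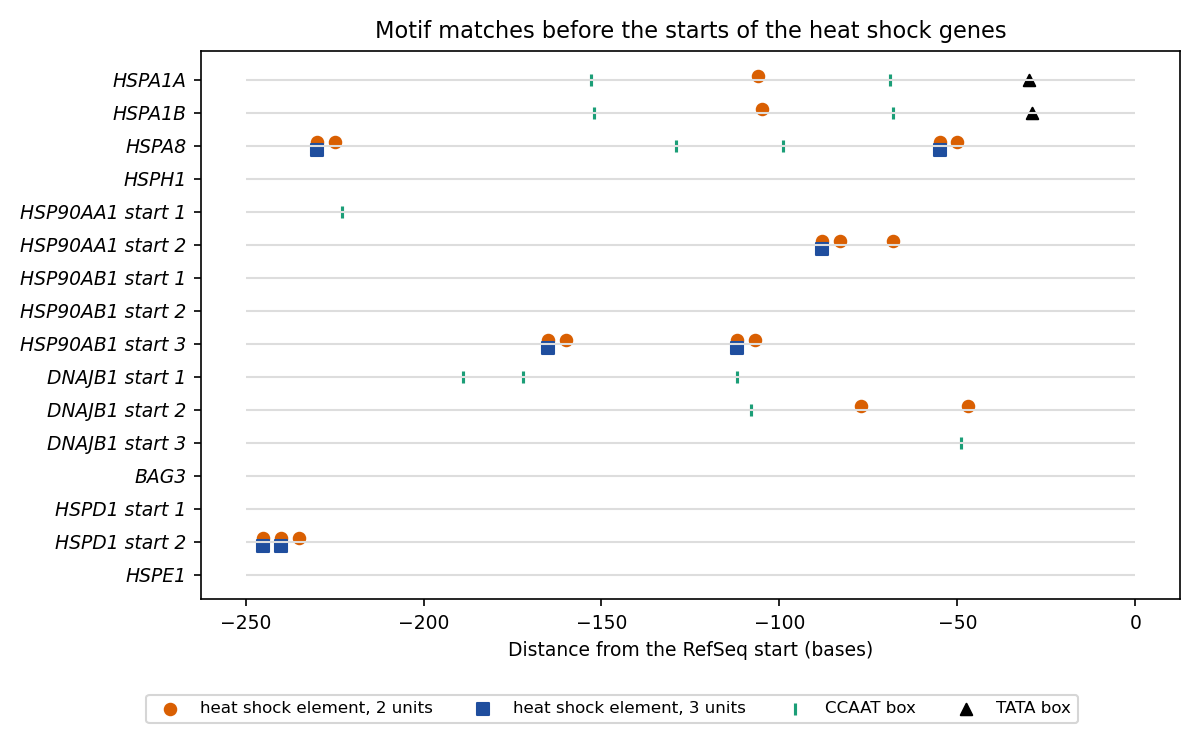
Positions of motif matches in the 250 bases before each of the 16 RefSeq starts of the 10 genes (horizontal axis, distance from the start in bases, with each symbol at the first base of a match). Orange circles and blue squares are heat shock elements of 2 and 3 units, green bars CCAAT and black triangles TATAAA, and 7 of the 16 windows carry an orange circle.

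The inducible HSP70 genes HSPA1A and HSPA1B, the most strongly heat-induced members of the family, gave almost no reads in any library. HSPA1A (chr6:31783291-31785719 on hg19, the build of the deposited files, plus strand) had 0 counts in all 6. HSPA1B (chr6:31795512-31798031, plus strand) had 1 and 2.0 counts in the DMSO cultures, 0.2 with siGSTO1, 1.4 and 1.5 with C1-27 at 4 h and 24 h, and 2.5 with C1-14. All of these are at or under 3 counts, the limit that a count of 0 allows, which corresponds to 0.0259 to 0.0528 RPKM depending on the library, so no ratio is given. That limit covers counting error only. Genes on both sides were read in every library, with 227 to 489 counts in LSM2 and 2451 to 4215 in C6orf48, whereas HSPA1L, between LSM2 and HSPA1A, had 1 to 9. HSPA1A and HSPA1B share sequence: of the distinct 50-base stretches of their GENCODE transcripts, 71.3% and 73.5% also occur in another gene. A read that fits both copies equally can be dropped or split by an aligner, so low counts here are uncertain as a measure of transcription, and the part of this in the 0 counts was not tested.

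HSPA8, the constitutive cytosolic HSP70 (chr11:122928200-122932901, minus strand), had the highest mean RPKM of the 10 genes in DMSO. Its DMSO range overlapped that of HSP90AB1, which was higher than HSPA8 with siGSTO1 and with C1-14. The RPKM of HSPA8 was 60.6 and 39.3 in the DMSO cultures, 35.3 with siGSTO1, 47.0 and 42.1 with C1-27 at 4 h and 24 h, and 64.0 with C1-14. The siGSTO1 value lay below both DMSO cultures and the C1-14 value above both, while both C1-27 values lay between them. HSPH1, an HSP110 protein that acts as a nucleotide exchange factor (chr13:31710763-31736117, minus strand), varied least of the 8. It had 3.68 and 3.07 RPKM in DMSO, 3.17 with siGSTO1, 3.41 and 3.50 with C1-27 at 4 h and 24 h, and 3.76 with C1-14, so that the highest value was 1.22 times the lowest.

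HSP90AA1, the stress-inducible cytosolic HSP90 (chr14:102547075-102606086, minus strand), varied most. It had 5914 and 6395 counts in the DMSO cultures, 7449 with siGSTO1, 5552 and 6356 with C1-27 at 4 h and 24 h, and 15098 with C1-14. Per length and depth this was 4.28 and 2.66 RPKM in DMSO, 4.81 with siGSTO1, 2.43 and 2.34 with C1-27, and 7.38 with C1-14. The C1-14 library stood highest, siGSTO1 was also above both DMSO cultures, and both C1-27 libraries were below both. The counted span of 59012 bp runs from the upstream start, so the RPKM divides reads of the shorter unit by the whole span and can understate the level of that unit. How the reads lie along the span was not examined. HSP90AB1, the constitutive HSP90 (chr6:44214849-44221614, plus strand), had 53.0 and 35.96 RPKM in DMSO, 53.8 with siGSTO1, 39.0 and 37.0 with C1-27 at 4 h and 24 h, and 65.1 with C1-14. Here too C1-14 was highest, and both C1-27 values fell within the range of the DMSO cultures.

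DNAJB1, a J-domain protein that loads clients onto HSP70 (chr19:14625582-14629201, minus strand), had 4.63 and 3.00 RPKM in DMSO, 5.21 with siGSTO1, 4.10 and 3.84 with C1-27 at 4 h and 24 h, and 4.22 with C1-14. Only siGSTO1 was outside the range of the DMSO cultures. BAG3, a co-chaperone that links HSP70 to selective autophagy (chr10:121410882-121437329, plus strand), had 1.398 and 1.32 RPKM in DMSO, 1.92 with siGSTO1, 1.498 and 2.11 with C1-27 at 4 h and 24 h, and 1.34 with C1-14. The siRNA culture and both C1-27 cultures were above both DMSO cultures, which differed by less for BAG3 than for any of the other 7 genes.

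HSPD1 and HSPE1 encode the chaperonin and its co-chaperonin that fold proteins in the mitochondrial matrix, and they are transcribed away from each other (chr2:198351308-198364998, minus strand, and chr2:198364721-198368187, plus strand, with 278 bp in common). HSPD1 had 25.0 and 20.6 RPKM in DMSO, 20.4 with siGSTO1, 22.0 and 18.7 with C1-27 at 4 h and 24 h, and 29.3 with C1-14. HSPE1 had 15.5 and 12.99 RPKM in DMSO, 17.2 with siGSTO1, 14.3 and 13.3 with C1-27, and 17.1 with C1-14. Both were above the DMSO cultures with C1-14, whereas with siGSTO1 HSPE1 was above them and HSPD1 just below. The RefSeq start of HSPE1 is 105 bp from the first and 539 bp from the second start of HSPD1.

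**Figure D2:**
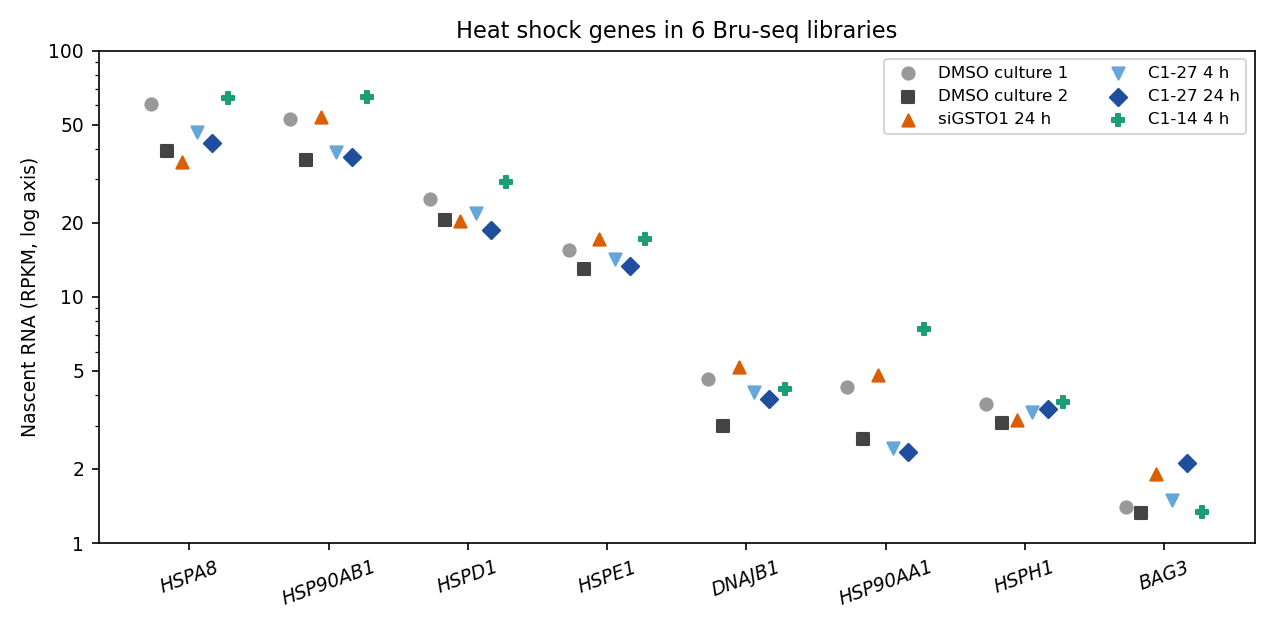
Nascent RNA of the 8 detected heat shock genes in each of the 6 libraries (vertical axis, RPKM on a log scale, 1 symbol per library). HSPA8 and HSP90AB1 lie between 35.3 and 65.1 RPKM and BAG3 between 1.32 and 2.11, and the C1-14 symbol of HSP90AA1 stands apart at 7.38.

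In DMSO the order of levels per length was HSPA8 (49.97 ± 15.1 RPKM, SD, n = 2), HSP90AB1 (44.5 ± 12.1), HSPD1 (22.8 ± 3.14), HSPE1 (14.2 ± 1.75), DNAJB1 (3.81 ± 1.15), HSP90AA1 (3.47 ± 1.15), HSPH1 (3.37 ± 0.432) and BAG3 (1.36 ± 0.0539). Neighbours whose DMSO ranges overlapped were HSPA8 and HSP90AB1, and DNAJB1, HSP90AA1 and HSPH1. All other neighbours were apart, in DMSO and over all 6 libraries. The HSP90AA1 level divides reads by the whole span of 59012 bp, which can understate the shorter unit. The place of HSP90AA1 in this order is therefore uncertain and may be too low. Processed pseudogenes and other genes share between 0% (HSPH1, BAG3) and 22.8% (HSPE1) of the 50-base stretches of the 8 detected genes, so the exonic part of some levels is uncertain. For HSPE1 the largest part, 13.4%, is shared with the protein-coding gene HSPE1-MOB4, whose name includes HSPE1, and not with a pseudogene. Transcript sequences were compared without their positions. The stretches shared with HSPE1-MOB4 may therefore lie in HSPE1 itself, so 22.8% may overstate how uncertain the HSPE1 level is.

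The DMSO cultures differed from each other in a single direction at these genes. All 8 had a lower RPKM in culture 2 than in culture 1, against 58.6% of the 7825 genes above the filter (longer than 300 bp, mean RPKM above 0.5). At least 1.4-fold lower were 4 of the 8, HSP90AA1 (1.61-fold), HSPA8 (1.54-fold), DNAJB1 (1.54-fold) and HSP90AB1 (1.47-fold), against 16.3% of all genes. The median log2 ratio of culture 2 over culture 1 was -0.42 for the 8 genes, -0.08 for all genes, -0.32 for genes of 300 bp to 10 kb and 0.11 for genes over 100 kb. This spread between the controls is as large as most of the differences from DMSO described next, and the reason for it was not tested. Fold changes are therefore given over the mean RPKM of both cultures and over each culture alone, and 1.4-fold, the study's own cut-off, is used for counts. For tests, edgeR's quasi-likelihood method was fitted to the counts of 14431 genes in all 6 libraries, with Benjamini-Hochberg adjustment over all of them. Only the DMSO cultures are replicates, numbered in the labels with no word on whether they were grown apart, so its p-values measure the spread between these 2 samples, which may be technical, and assume that each single library varies as they do. In these bulk cultures a smaller number of transcribing cells and less RNA per cell cannot be told apart.

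With C1-14 at 10 µM for 4 h, HSP90AA1 rose and no other of the 8 genes passed the test. The HSP90AA1 fold change was 2.13 over the DMSO mean, 1.72 over culture 1 and 2.78 over culture 2. Its edgeR log2 fold change was 1.12 (SE 0.249, adjusted p = 0.0064), where 0.132% of all genes were called higher and 0.00693% lower, and 0.0139% either way by DESeq2. The call depended on the scaling, the filter and the tool: with DESeq2 size factors the edgeR adjusted p was 0.094, without a filter on low counts 0.055, and DESeq2 itself gave 0.829 (unadjusted p = 2.87e-04). HSP90AB1 was next, at 1.46-fold (1.23 and 1.81 over cultures 1 and 2), and did not pass (edgeR log2 fold change 0.57, SE 0.263, unadjusted p = 0.029, adjusted p = 1.00). Of all genes 1.61% had an unadjusted edgeR p under 0.05, against these 2 of the 8.

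Counting the 8 genes, 2 were at least 1.4-fold higher with C1-14, against 3.71% of 7784 genes, and 0 at least 1.4-fold lower, against 1.01%. Without DMSO culture 1 as control 5 were higher, and without culture 2 only HSP90AA1 was. Above both DMSO cultures were 6 of the 8, against 27.2% of all genes, and below both were 0, against 21.6%. Those above were HSP90AA1, HSP90AB1, HSPD1 (1.29-fold), HSPA8 (1.28-fold), HSPE1 (1.20-fold) and HSPH1 (1.11-fold). DNAJB1 (1.11-fold) lay between the DMSO cultures, as did BAG3 (0.983-fold). The median log2 fold change was 0.31 for the 8 genes and 0.01 for all genes, and HSP90AA1 was higher than 99.2% of all genes. Genes of 300 bp to 10 kb had a median of 0.09 in the same comparison. The summed RPKM of 8 markers of intestinal epithelium, in which 3 keratins make up most, was 32.7 with C1-14, 27.3 and 17.6 in the DMSO cultures and 14.5 to 18.8 in the other libraries, and its part in the result was not tested.

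C1-27 was used at 1 µM and C1-14 at 10 µM, so their values can only be set side by side. At 4 h, HSP90AA1 had an RPKM of 2.43 with C1-27 and 7.38 with C1-14, HSP90AB1 39.0 and 65.1, HSPA8 47.0 and 64.0, and BAG3 1.498 and 1.34. The compounds share the DMSO controls, and the difference between them was not tested because dose and compound cannot be told apart.

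With C1-27 at 4 h no heat shock gene passed the test. Of the 8, 0 had an unadjusted edgeR p under 0.05, against 0.797% of all genes, and 0 were called by DESeq2. Over all genes edgeR called 0.0208% higher and 0% lower, and DESeq2 0% either way. Their fold changes ran from 0.701 for HSP90AA1 to 1.10 for BAG3, and only HSP90AA1 was at least 1.4-fold lower, against 2.22% of 7667 genes. HSP90AA1 was 0.568-fold of culture 1 and 0.915-fold of culture 2 (edgeR log2 fold change -0.48, SE 0.263, unadjusted p = 0.069, adjusted p = 1.00), so the size of the difference depended on which control it was set against. Without culture 1 the count was 0. The number at least 1.4-fold higher was 0, against 0.457%. HSP90AA1 was the 1 gene below both DMSO cultures, against 18.9%, and BAG3 the 1 gene above both, against 21.6%. The median log2 fold change was -0.02 for the 8 genes and -0.01 for all.

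After 24 h of C1-27 the pair at the ends of the range were again HSP90AA1 and BAG3, and neither passed the adjusted test. BAG3 was 1.55-fold higher (1.51 and 1.60 over cultures 1 and 2, edgeR log2 fold change 0.58, SE 0.257, unadjusted p = 0.023, adjusted p = 0.921). It was the 1 gene of the 8 at least 1.4-fold higher, against 3.23% of 7918 genes, and it was higher than 98.6% of them. HSP90AA1 was 0.674-fold (0.546 and 0.881, edgeR log2 fold change -0.61, SE 0.265, unadjusted p = 0.021, adjusted p = 0.875) and was the 1 gene at least 1.4-fold lower, against 3.49%. That count became 0 without culture 1 and 3 without culture 2. HSP90AA1 and HSPD1 (0.820-fold) were below both DMSO cultures, against 21.5% of all genes, BAG3 was above both, against 36.8%, and the other 5 were between them, with 0.832-fold for HSP90AB1, 0.843-fold for HSPA8, 0.934-fold for HSPE1, 1.01-fold for DNAJB1 and 1.04-fold for HSPH1. The median log2 fold change was -0.17 for the 8 genes and 0.03 for all. By edgeR 0 of the 8 were called and 2 had an unadjusted p under 0.05, by DESeq2 0 and 1. Over all genes edgeR called 0.194% higher and 0.166% lower and gave 4.28% an unadjusted p under 0.05, and DESeq2 called 0.125%.

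Between 24 h and 4 h of C1-27, which do not use DMSO as the reference level, 0 of the 8 were called by edgeR or DESeq2 and 0 had an unadjusted p under 0.05 in either, where edgeR called 0.0416% of all genes higher and 0.0832% lower at 24 h. Of all genes 2.9% had an unadjusted edgeR p under 0.05, and DESeq2 called 0.0346%. BAG3 was 1.41-fold higher at 24 h (edgeR log2 fold change 0.42, SE 0.302, adjusted p = 1.00), and the other 7 lay between 0.849-fold for HSPD1 and 1.03-fold for HSPH1.

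With siGSTO1 the 8 genes lay on both sides of DMSO and 0 passed the test, although this comparison had the most calls over all genes, with 3.69% called higher and 1.21% lower by edgeR. Of the 8, 0 were called and 1 had an unadjusted p under 0.05, by edgeR and by DESeq2 alike, where 15.2% of all genes had an unadjusted edgeR p under 0.05 and DESeq2 called 1.49%. HSPA8 was 0.705-fold (0.581 and 0.897 over cultures 1 and 2, edgeR log2 fold change -0.61, SE 0.264, unadjusted p = 0.021, adjusted p = 0.201). BAG3 was 1.41-fold (1.37 and 1.45, edgeR log2 fold change 0.38, SE 0.263, adjusted p = 0.540).

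The siGSTO1 culture was above both DMSO cultures for 5 of the 8, against 35.2% of 8138 genes. These were BAG3, HSP90AA1 (1.39-fold), DNAJB1 (1.37-fold), HSPE1 (1.21-fold) and HSP90AB1 (1.21-fold). HSPA8 and HSPD1 (0.894-fold) were below both, against 34.2%, and HSPH1 was between them at 0.939-fold. The median log2 fold change was 0.27 for the 8 genes and -0.00070 for all genes. At least 1.4-fold higher was BAG3 alone, against 10.5%, and at least 1.4-fold lower HSPA8 alone, against 6.48%. Without culture 1 the counts were 4 higher and 0 lower, and without culture 2 they were 0 higher and 1 lower. The constitutive HSPA8 and the inducible HSP90AA1, both highest with C1-14, thus lay on opposite sides of DMSO after siGSTO1.

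The 24 h treatments were also compared directly. HSP90AA1 was 0.487-fold with C1-27 relative to siGSTO1 (2.34 against 4.81 RPKM, edgeR log2 fold change -0.98, SE 0.300, adjusted p = 0.068), which did not pass. It passed when only genes with at least 50 counts in at least 2 libraries were kept (adjusted p = 0.045). By edgeR 0 of the 8 were called and 1 had an unadjusted p under 0.05, by DESeq2 0 and 1, and edgeR called 0.243% of all genes higher and 1.18% lower, with 8.06% at an unadjusted p under 0.05, and DESeq2 0.152%. HSP90AB1 was 0.688-fold and the other 6 lay between 0.737-fold for DNAJB1 and 1.19-fold for HSPA8. Agent and delivery differ between these cultures together, and each had 1 library.

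**Figure D3:**
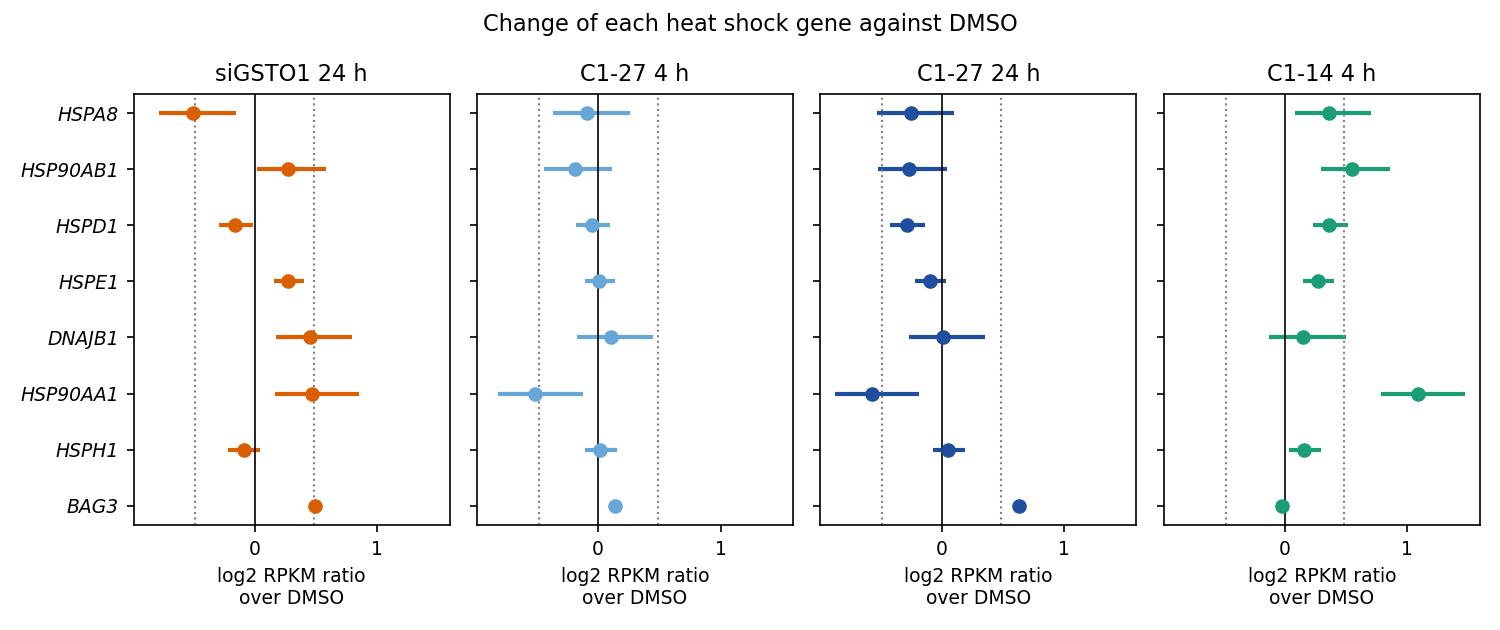
Change of the 8 detected heat shock genes in each treated library (horizontal axis, log2 RPKM ratio). Points are ratios over the mean of both DMSO cultures, bars run from the ratio over one culture to the ratio over the other, and dotted lines mark 1.4-fold. With C1-14, the bar of HSP90AA1 is wholly beyond the line, from 1.72-fold to 2.78-fold, as is that of BAG3 with C1-27 at 24 h, from 1.51-fold to 1.60-fold.

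**Figure D4:**
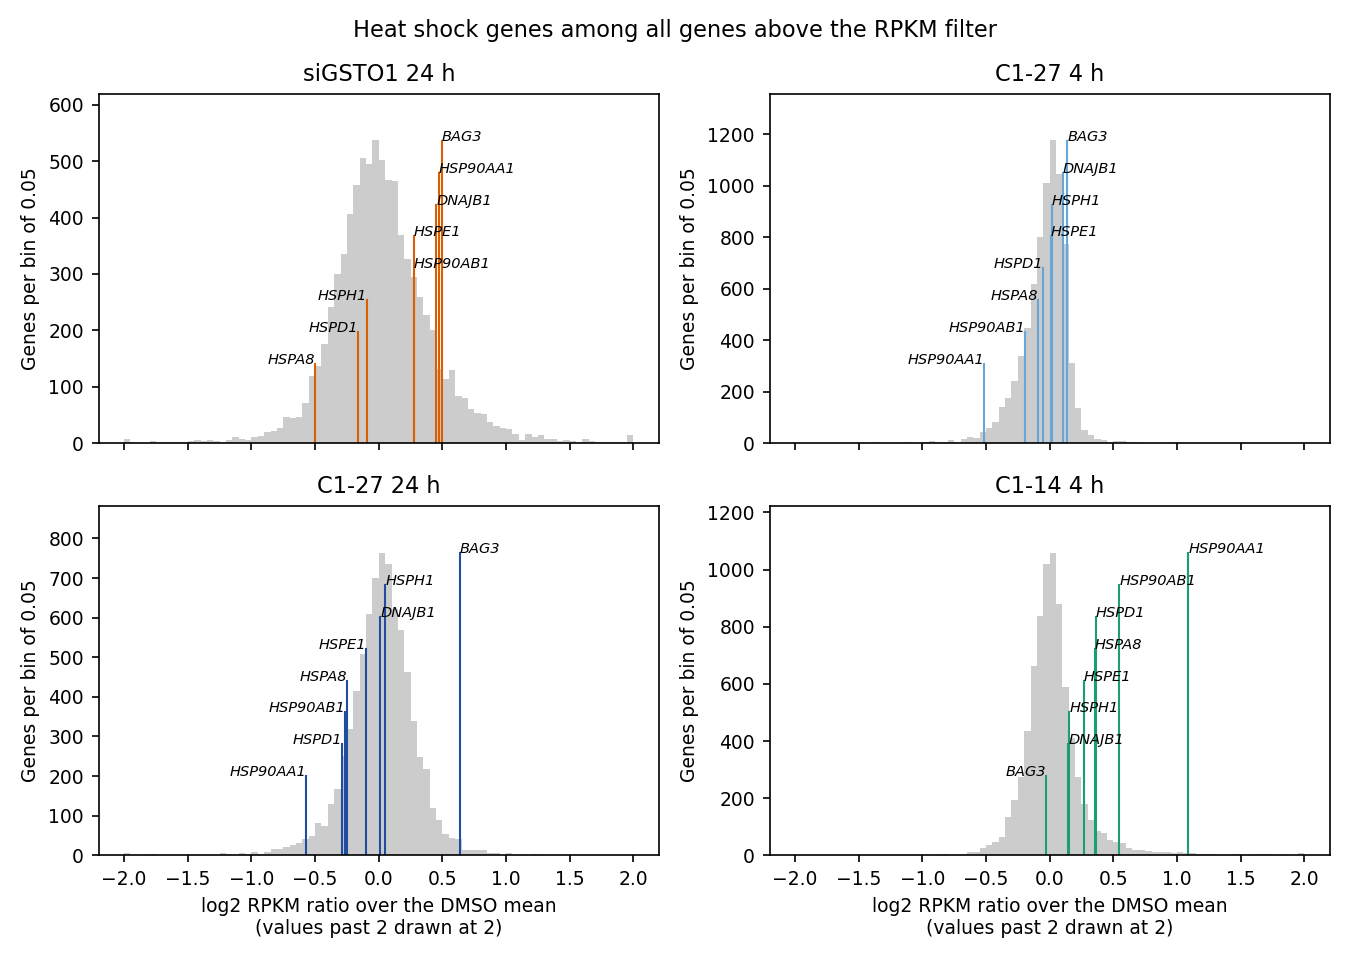
The same ratios (coloured lines, their heights only spread the labels) over histograms of all genes above the RPKM filter (grey, genes per bin of 0.05 on the log2 scale, 7667 to 8138 genes per panel). HSP90AA1 lies above 99.2% of genes with C1-14 and above 2.39% of genes with C1-27 at 24 h.

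The other genes of the heat shock and chaperone network were examined as 9 lists, of which 74 genes are reported here and 63 of those could be tested. By edgeR 0 of the 63 were called with siGSTO1, C1-27 at 4 h or C1-27 at 24 h, and DESeq2 called 0 in each. At an unadjusted edgeR p under 0.05 were 1 of the 63 with siGSTO1, against 15.2% of all genes, 0 with C1-27 at 4 h, against 0.797%, and 0 with C1-27 at 24 h, against 4.28%. With C1-14 0 of the 63 were called by edgeR, against 0.132% of all genes higher and 0.00693% lower, 3 had an unadjusted p under 0.05, against 1.61%, and DESeq2 called 0. These 3 are named after their values were seen. The ubiquitin gene UBB had 405 and 346 counts in DMSO, 580 with siGSTO1, 418 and 556 with C1-27 at 4 h and 24 h, and 1005 with C1-14. The C1-14 library was highest, at 2.25-fold (1.67 and 3.42 over cultures 1 and 2, edgeR log2 fold change 1.23, SE 0.317, adjusted p = 0.068), which did not pass. The small heat shock protein HSPB1 (2.38-fold, edgeR adjusted p = 0.854) and the ubiquitin ligase STUB1 (2.22-fold, 57 counts, edgeR adjusted p = 1.00) did not pass either.

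HSF1, the factor that drives the response, had 1.84 and 1.16 RPKM in DMSO and 1.14 to 1.49 in the treated libraries, all within the range of the DMSO cultures except C1-27 at 24 h, which was just below it. HSPA9, the mitochondrial HSP70, had 9.25 and 7.83 RPKM in DMSO and 8.32 to 9.87 with treatment. HSPA5, the HSP70 of the endoplasmic reticulum, had 8.95 and 4.80 RPKM in DMSO, 9.99 with siGSTO1, 6.72 and 8.23 with C1-27 and 11.5 with C1-14, and did not pass in any comparison with DMSO (edgeR adjusted p of 0.415 with siGSTO1 and 0.426 with C1-14). The cytosolic chaperonin, which folds actin and tubulin, is described after its values were seen. Its 8 genes had positive edgeR log2 fold changes in 1 case with siGSTO1 (median -0.24), 7 with C1-27 at 4 h (median 0.03), 0 with C1-27 at 24 h (median -0.15) and 8 with C1-14 (median 0.30), against 52%, 45.9%, 50.3% and 50.2% of all genes tested, and 0 of the 8 were called in any of these comparisons. In the other lists, values with C1-14 were positive in 3 of 6 stress factors, 3 of 5 other HSP70 genes and 2 of 3 small heat shock genes. They were positive in 6 of 8 J-domain genes, 3 of 6 BAG and nucleotide exchange genes and 10 of 11 HSP90 co-chaperones. The mitochondrial list had 7 of 13 and the other HSF1 targets 3 of 3, and 45 of all 63 were positive. Over the 63 genes the median edgeR log2 fold change was -0.14 with siGSTO1, -0.01 and -0.07 with C1-27 at 4 h and 24 h, and 0.12 with C1-14, beside 0.02, -0.02, 0.00 and 0.00 for all genes tested. Untested for low counts were 11 genes, among them the strictly inducible HSPA6 and the small heat shock proteins CRYAA and CRYAB.

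**Figure D5:**
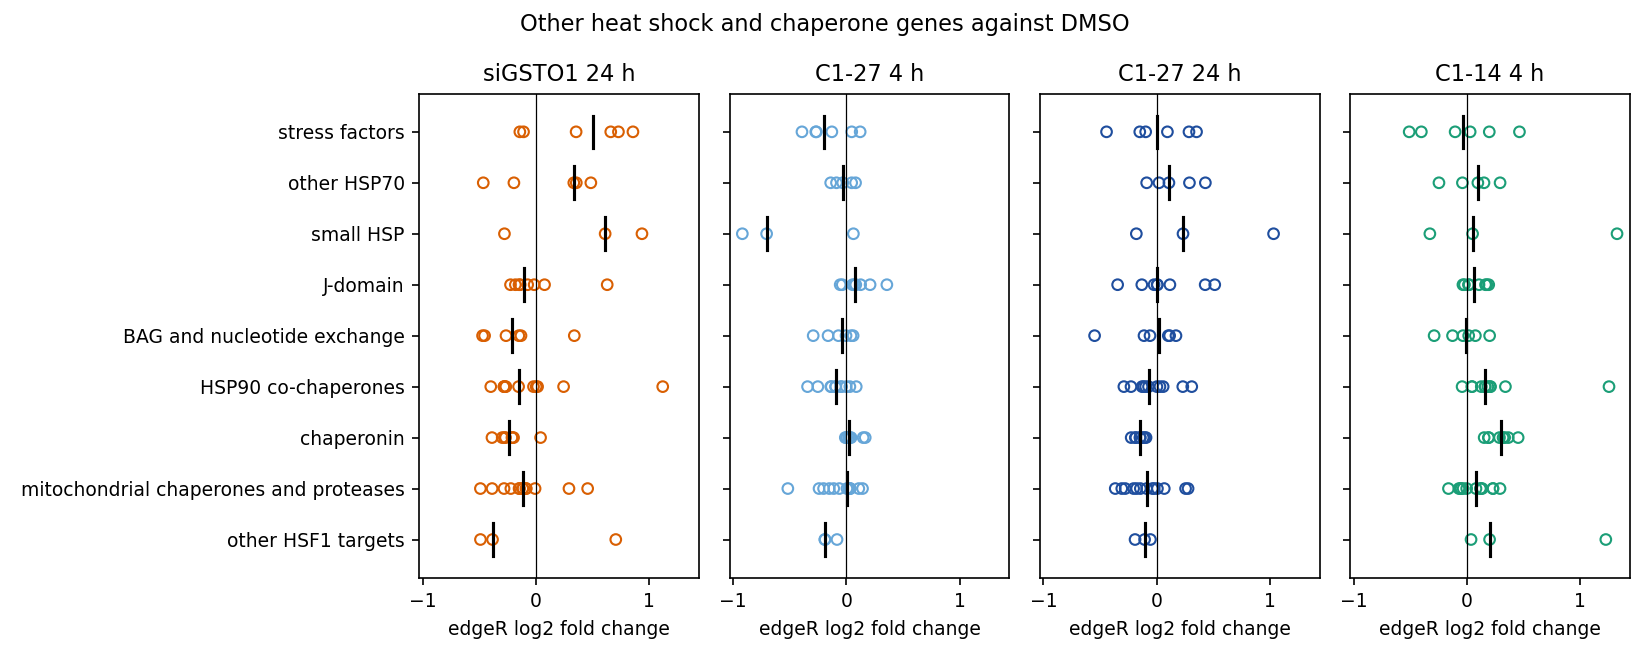
Log2 fold changes from edgeR for the 63 tested and reported genes of the 9 other heat shock and chaperone lists in each treated library against DMSO (1 circle per gene, black bars are list medians). Open circles mark genes that did not pass the test, which holds for all 63, and the 3 circles farthest to the right with C1-14 are HSPB1 (1.33), STUB1 (1.26) and UBB (1.23).

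The genes whose pattern over the 6 libraries was most like the mean of the 8 were sought among 7910 genes, by the root mean square difference of log2 RPKM after each gene was centred on its own mean. The nearest 5 were RPS27A (0.040), RPS3 (0.042), ANKRD40 (0.046), RPL39 (0.049) and RPL6 (0.053), of which 4 encode ribosomal proteins. The share of such genes among the 7910 was not counted, so no link to them is drawn. The mean of the 8 stood at 0.14 in DMSO culture 1, -0.28 in culture 2, 0.10 with siGSTO1, -0.12 and -0.15 with C1-27 at 4 h and 24 h, and 0.31 with C1-14. The ribosomal protein gene RPS3 stood at 0.16, -0.26, 0.14, -0.14, -0.12 and 0.23 in the same order. The mean is not a course that all 8 genes share. With siGSTO1 HSPA8 stood at -0.41 and HSP90AA1 at 0.40, and with C1-14 BAG3 stood at -0.23 and HSP90AA1 at 1.02.

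The opposite strand of the same genes was nearly silent. Antisense counts were 0 to 107 per gene and library, and for the 8 detected genes the antisense RPKM came to between 0% and 1.93% of the sense RPKM. HSP90AA1 had 52 and 97 antisense counts in DMSO, 48 with siGSTO1, 107 and 77 with C1-27 at 4 h and 24 h, and 50 with C1-14. Scaled to depth, the C1-14 library, highest on the sense strand, was lowest on the antisense strand at 0.0244 RPKM. C1-27 at 24 h was close to it, at 0.0284 RPKM, and the difference was not tested. HSPA1A and HSPA1B had 0 antisense counts in all 6.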

How the data were processed

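The authors labelled HCT116 cultures with bromouridine and deposited 1 table per library. The submitters' processing notes list CASAVA 1.8.2, Bowtie 0.12.8, TopHat 1.4.1, bedtools 2.16.2 and hg19. How reads that align to several places were handled is not given in the sources used here. The deposited expected counts, which the authors did not normalize, tally the reads of each gene on one strand, introns included. Counts under 10 that are not whole are multiples of 1/52 (within 0.002 of a 52nd), so reads appear to be shared out by bases. The deposited signal, counts per bp, was not tested. The authors computed RPKM from gene length and the mapped reads of each library, which came to between 23388425 and 46017052.

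Counts rounded to whole numbers were fitted in 5 groups with edgeR 4.0.16 (quasi-likelihood, TMM, R 4.3.3) for 14431 genes, those above 300 bp that reached 10 counts in 2 or more libraries. The fit had 1 residual degree of freedom and a common dispersion of 0.0381, and standard errors were the log2 fold change over the square root of F. The methods were run on simulated counts with known changes, where only the median log2 fold change of doubled genes was held to a limit. The simulated libraries had no trend with gene length. DESeq2 1.42.0 was the alternative. RPKM ratios carry no pseudocount. Ranges over single DMSO cultures give the precision. Sequences are from RefSeq on GRCh38.p14, matched by symbol for all 10 genes, and shared 50-base stretches from GENCODE transcripts.

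The 10 genes and the chaperone lists were chosen with earlier results of these data known. Named were all 10 genes in every comparison, HSF1, HSPA9, HSPA5 and GSTO1 whatever their values, from the lists each gene with an edgeR adjusted p under 0.05 and past 1.4-fold against each DMSO culture (at most 3 per list and comparison), and the 5 genes of most similar profile. Alternatives covered the control culture, scaling, pseudocount, filters and tool, and size-class centring and edgeR's legacy option were added once the values were known. The identity of the encoded proteins was not analysed here. 1 gene of the chaperone lists is not reported here.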

Additional observations from a re-analysis of the deposited data

Results flagged for a closer look

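The antisense row of HSPD1, which no comparison used, was higher with C1-27 at 24 h than in either DMSO culture. It held 15 and 36 counts in DMSO, 26 with siGSTO1, 43 and 73 with C1-27 at 4 h and 24 h, and 36 with C1-14. Its RPKM at 24 h, 0.118, was 1.797 times that of the higher DMSO culture (0.0658), and came to 0.633% of the sense RPKM. No test was run on this row.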

How the results depend on the processing

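The control culture moved the counts of heat shock genes past 1.4-fold most. Leaving out 1 DMSO culture gave 0 to 4 higher and 0 to 1 lower with siGSTO1, 0 higher and 0 to 1 lower with C1-27 at 4 h, 1 higher and 0 to 3 lower with C1-27 at 24 h, and 1 to 5 higher and 0 lower with C1-14. For siGSTO1, the count at least 1.4-fold higher was 1 as reported, 0 after rescaling RPKM with TMM factors or DESeq2 size factors or after adding a pseudocount of 0.1 RPKM, and 2 after centring on genes of the same size class, a setting chosen after seeing the data, as was edgeR's legacy option. For C1-27 at 4 h, the count at least 1.4-fold lower went from 1 to 0 with TMM factors or DESeq2 size factors. For C1-14, the count higher went from 2 to 1 with size-class centring. TMM factors and DESeq2 size factors moved the median log2 ratio of all genes with siGSTO1 to -0.12 and -0.15. In tests, the call of HSP90AA1 with C1-14 (1 gene) became 0 with DESeq2, with edgeR on DESeq2 size factors and with no filter on low counts, while its log2 fold change was 0.84 without DMSO culture 2 and 1.46 without culture 1. Its adjusted p was 0.0052 with at least 50 counts and 0.0133 with the legacy option. For C1-27 at 24 h against siGSTO1, at least 50 counts gave 1 call in place of 0. Log2 fold changes near 0 changed sign for HSPD1 with C1-27 at 4 h (0.0016 by DESeq2, 0.0017 by edgeR on DESeq2 size factors) and HSPH1 with C1-27 at 24 h (-0.013 by each). Leaving out 1 DMSO culture turned the sign of the edgeR log2 fold change in 12 of the 32 pairs of gene and comparison with DMSO, none of them called, among them DNAJB1 with C1-27 at 24 h (-0.02 to 0.28) and HSPA8 with C1-27 at 4 h (-0.06 to 0.25), each without culture 1. The causes were not tested. With a single residual degree of freedom no test is possible without a DMSO culture. No paired analysis was possible because only the DMSO group has more than 1 replicate number. HSPA1A and HSPA1B are not reported from the settings without a filter on low values, since their counts do not exceed the limit of 3.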
